A study of Mus musculus with 2 samples.

Results

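Heart muscle cells were looked for in 2 single-cell RNA libraries of mouse embryos, of which 1 was labelled NTD, for neural tube defects, and 1 was its control. A cell barcode was taken when it held at least 1 unique molecular identifier (UMI, 1 counted RNA molecule) in at least 3 of Ryr2, Myh6, Myh7, Tnnt2, Nkx2-5, Myl7, Actn2 and Ttn, of which at least 1 was Myh6, Myh7 or Nkx2-5. It also had to hold 0 UMIs of the skeletal muscle factors Myod1, Myog and Myf5, of the epithelial gene Epcam and of the endothelial gene Cdh5. By this rule 79 of 19056 barcodes were taken in the NTD library and 89 of 18572 in the control library. For the NTD group, pregnant mice ate a low-folate diet and got methotrexate (MTX), a folate antagonist, into the peritoneum at 1.5 mg/kg on gestational day 7.5. The control library is labelled normal saline, and the diet of its dams is not stated. Neural tube closure was scored from embryonic day 9.5 to 10.5, and the labels describe the NTD embryos as smaller and delayed in development to varying degrees. No label gives the number, sex or exact stage of the embryos behind a library, or the strain of the mice. The labelled tissue of both libraries is brain, and the growth protocol in the labels describes a culture of embryonic stem cells, neither of which names heart.

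Heart muscle is the first working muscle of the embryo, and the heart tube beats and forms its atrial and ventricular chambers at about the stage at which the neural tube closes. Its cells contract when calcium enters through voltage-gated channels and releases more calcium from the sarcoplasmic reticulum through Ryr2, which lets myosin of the thick filament pull on actin of the thin filament. In the mouse embryo the myosin heavy chain gene Myh6 is known as the form that prevails in the atria and Myh7 as the form that prevails in the ventricles, and the light chain genes Myl2 and Myl3 mark the ventricles. Both groups had 1 library, so no difference below has a replicate check, no p-value was computed, and every interval (95%) covers counting error only. How the embryos, the stage, the dissection and the treatment each bear on a difference cannot be told apart.

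The libraries differed beyond these cells, in ways that touch every comparison. Ribosomal protein genes took 13.2% of UMIs in all other barcodes of the NTD library and 8.25% in those of the control library, and 11.7% and 6.06% in the heart muscle set. Genes that span less than 10 kb of the genome took 33.6% of the set's UMIs in the NTD library and 23.7% in the control library, while genes of 300 kb and more took 9.20% and 12.5%. Barcode sequences found in both libraries numbered 105, and 0 of them were in the set. The set held 390114 UMIs in the NTD library and 364779 in the control library, with a median of 3328 and 3279 UMIs per barcode.

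The share of barcodes that met the rule was 0.415% in the NTD library (0.328 to 0.516%) and 0.479% in the control library (0.385 to 0.589%). The difference was -0.0646 percentage points (-0.202 to 0.0709), which was not detectable at this depth. When barcodes below the lowest NTD total, 1589 UMIs, were left out of both libraries, it was -0.207 points (-0.373 to -0.0517). That left members in 79 of 19056 NTD and 87 of 13996 control barcodes. With the rule applied after each barcode was thinned to 1500 UMIs, it was -0.152 points (-0.288 to -0.0250). Without the members that held at least 3 skeletal muscle genes it was 0.0486 points (-0.0780 to 0.175). Fewer such cells in the embryo, fewer taken with the dissected tissue and less RNA per cell cannot be told apart here.

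The set was not uniform. Of the 79 NTD members, 26 held 3 of the 8 rule genes, 7 held 4, 13 held 5, 16 held 6, 13 held 7 and 4 held all 8. Of the 89 control members, 25 held 3, 12 held 4, 21 held 5, 19 held 6, 12 held 7 and 0 held all 8. The number of rule genes held went with heart genes the rule did not use. The summed level of 22 such genes, in CPM (counts scaled to the total UMIs of the barcodes summed), was 1984 CPM in NTD and 1866 CPM in control members that held 3 rule genes. In members that held 5 to 8, it was 11501 CPM in NTD and 19809 CPM in control. Barcodes just outside the rule, with 2 rule genes and all else met, numbered 136 in the NTD library and 77 in the control library and held 653 CPM and 869 CPM of the same genes. Members with 3 rule genes thus lay nearer to the barcodes outside than to the members with 5 or more.

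A second kind of muscle was present in the control set. At least 3 of 11 skeletal muscle genes had a UMI in 1 NTD member and in 22 control members, of which 19 held 3 or 4 rule genes. In the control members with 4 rule genes these genes summed to 5707 CPM, against 51.7 CPM in the NTD members with 4. Over all members, Myl1, a fast skeletal light chain, had 14 UMIs in NTD and 135 in control, Mylpf 2 and 63, the thin filament ruler Neb 7 and 88, and the embryonic myosin Myh3 4 and 49. The 22 control members that held at least 3 of these genes had a median of 0 UMIs of Myh6 and 9.5 UMIs of Ttn, which both kinds of striated muscle use.

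**Figure D1:**
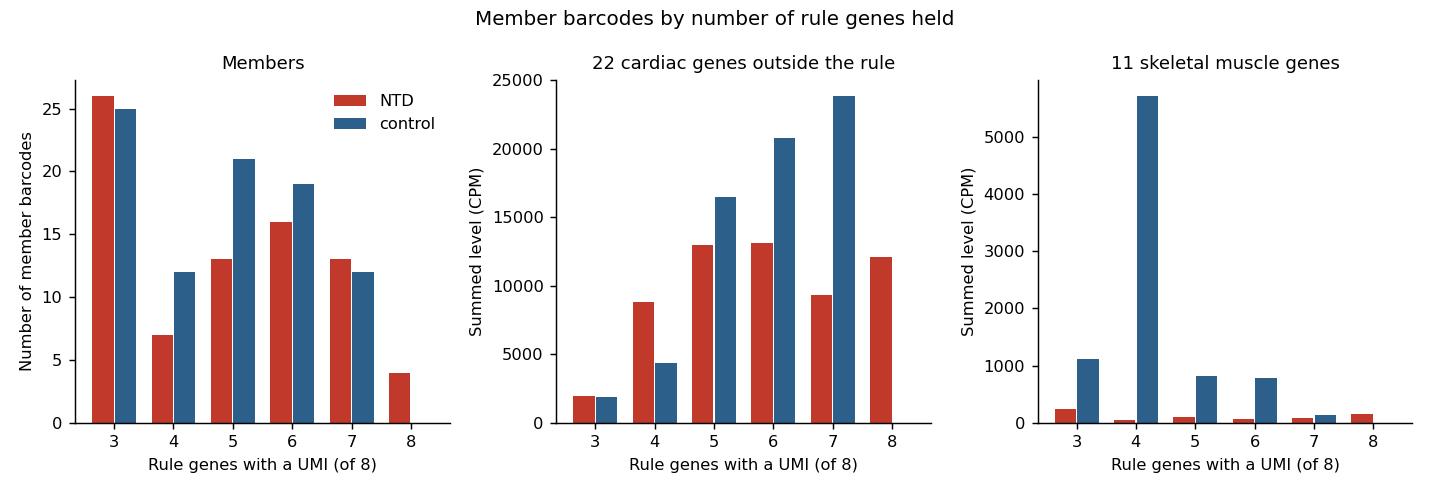
Bars show, for members that held 3 to 8 of the 8 rule genes, the number of barcodes (left), the summed CPM of 22 heart genes outside the rule (middle) and the summed CPM of 11 skeletal muscle genes (right), NTD in red left of control in blue. Heart genes were lowest at 3 rule genes in both libraries, and the skeletal genes stood highest in the control members with 4; no control member held all 8.

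For this reason most comparisons below are given for core members, a set defined after the values were seen, and some for all members too. Core members held at least 5 rule genes, fewer than 3 of the 11 skeletal muscle genes and at most 15000 UMIs. They numbered 44 in the NTD library and 49 in the control library, with medians of 3851.5 and 3127 UMIs. Every one of the core members held at least 7 of the 22 heart genes outside the rule, with a median of 12.5 in NTD and 13 in control members. Markers of other cell types were also counted in them. The 10 endothelial genes summed to 24 UMIs in NTD and 24 in control core members, the 7 macrophage genes to 6 and 4, the 7 epicardial genes to 12 and 18, and the 6 epithelial genes to 12 and 14. The 6 neuron genes summed to 791 CPM and 770 CPM, and to 1493 CPM and 1178 CPM in other barcodes. At least 3 of them were held by 13 of the 44 NTD (29.5%) and 9 of the 49 control core members (18.4%). In other barcodes 40.6% in NTD and 23.8% in control held at least 3. The 7 neural progenitor genes summed to 132 UMIs in NTD and 53 in control core members (691 CPM and 298 CPM), a log2 ratio of 1.21 (0.74 to 1.70), and to 986 CPM and 469 CPM in other barcodes. Of these, Hes5 and Fabp7 had enough UMIs to be measured, and both were at least 2-fold higher in NTD core members. Smooth muscle genes summed to 157 and 205 UMIs and mesenchyme genes to 84 and 80. The erythroid genes summed to 10496 CPM in NTD and 9180 CPM in control core members, and the haemoglobin gene Hbb-y had a UMI in every core member and in nearly all neuron barcodes of both libraries, so it was background in this set.

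The 15 genes with the highest levels over other barcodes in both libraries included heart genes outside the rule. Within each library the members stood apart from all other barcodes in Mlip, a lamin-interacting protein of heart and muscle, at 157-fold in NTD and 143-fold in control. Ldb3, which anchors the Z disc, was 95.6-fold and 90.7-fold higher in members than in other barcodes, and Ankrd1, a stress-responsive cardiac repeat protein, 78.9-fold and 124-fold. Myocd, the co-activator that drives heart and smooth muscle genes, was 63.0-fold and 65.4-fold higher. Slc8a1, the sodium-calcium exchanger of heart muscle, was the most counted heart gene and was 30.8-fold higher in NTD and 26.5-fold higher in control members than in other barcodes of the same library. These are descriptions, since the rule picked barcodes rich in heart RNA.

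Over all members, 265 of 5718 measured genes (at least 30 UMIs over both libraries) were at least 2-fold higher in NTD (4.63%) and 382 were at least 2-fold lower (6.68%). In core members 138 of 2878 measured genes were at least 2-fold higher in NTD (4.79%) and 150 at least 2-fold lower (5.21%). Without the members that held 3 or more skeletal muscle genes, the shares were 3.83% higher and 5.19% lower of 4859 measured genes. In all other barcodes the shares were 1.36% higher and 9.11% lower of 19406 measured genes. The median log2 ratio of NTD over control was -0.10 over all measured genes in members and -0.02 in core members. It went with the length of the gene: in core members it was 0.55 for genes spanning less than 10 kb, 0.20 from 10 to 30 kb, -0.15 from 30 to 100 kb, -0.30 from 100 to 300 kb and -0.28 for longer genes. The span is given below for some of the heart genes.

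The heavy chain of the thick filament differed most in its make-up. Myh6, the myosin motor of the embryonic atrium and later of the whole adult mouse heart, had 131 UMIs in NTD members (336 CPM) and 360 in control members (987 CPM), a log2 ratio of -1.55 (-1.86 to -1.26). Myh7, the slow myosin of the embryonic ventricle, had 149 UMIs in NTD members (382 CPM) and 129 in control members (354 CPM), a log2 ratio of 0.11 (-0.24 to 0.46). In core members Myh6 was at 534 CPM in NTD and 1900 CPM in control, with a ratio on the log2 scale of -1.83 (-2.16 to -1.51), and Myh7 at 576 CPM and 534 CPM. Myh6 took 46.8% of the Myh6 and Myh7 UMIs of NTD members (40.8 to 52.8%) and 73.6% of those of control members. Both genes are rule genes, so these levels are a description.

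Single barcodes showed where the difference lay. Of 44 NTD core members, 7 held Myh6 without Myh7, 9 held Myh7 without Myh6, 27 held both and 1 held neither. Of 49 control core members, 23 held Myh6 without Myh7, 5 held Myh7 without Myh6, 21 held both and 0 held neither. The median core member held 2 UMIs of Myh6 in NTD and 5 in control, and the highest held 10 in NTD and 39 in control. The highest single barcode gave 9.80% of the NTD and 11.5% of the control core UMIs of Myh6. Barcodes with more than 10 Myh6 UMIs were seen in the control library alone of the 2.

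**Figure D2:**
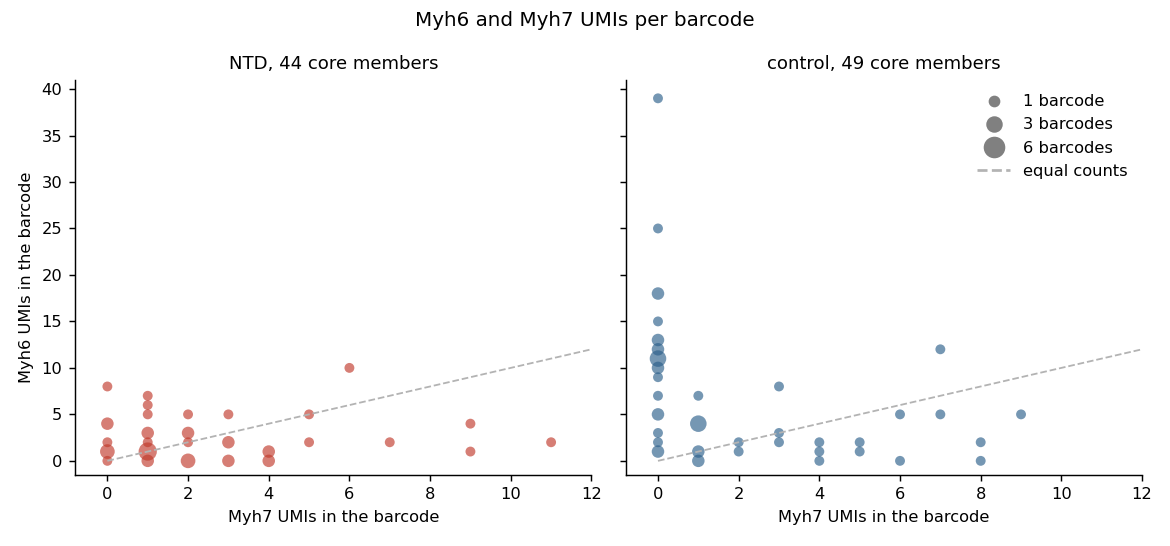
Each point is a pair of counts in core members, Myh7 UMIs across and Myh6 UMIs up, in the NTD library (left, 44 barcodes) and the control library (right, 49 barcodes); point area gives the number of barcodes and the dashed line marks equal counts. Control barcodes rise to 39 Myh6 UMIs at 0 Myh7 UMIs, while no NTD barcode exceeds 10 Myh6 UMIs.

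Myh6 (chr14:54941921-54966927, minus strand) and Myh7 (chr14:54970684-54994626, minus strand) stand side by side in GRCm38 and span 25 kb and 23.9 kb. The part of gene length in their ratios was not tested. The chains are close relatives, and how reads that match both were counted is not stated, so the split of reads between them is uncertain. The sequence just before a RefSeq start on GRCm38.p6 is shown for this pair and for Myl3, which differed the other way. Each stretch has 250 bases and is read on the gene's strand. RefSeq starts differ from the gene spans above: the Myh6 stretch lies inside the Myh6 span, and the Myh7 stretch overlaps the end of the Myh7 span. Another RefSeq stretch of Myh7, chr14:54994627-54994876, is not shown and also holds the NKX2-5 motif and an E-box. Capitals mark matches on either strand to a MEF2 motif, a GATA motif (GATAA), an NKX2-5 motif (AAGTG), an E-box (CANNTG) or a CArG box, the site of serum response factor.
Myh6 promoter, chr14:54966608-54966857: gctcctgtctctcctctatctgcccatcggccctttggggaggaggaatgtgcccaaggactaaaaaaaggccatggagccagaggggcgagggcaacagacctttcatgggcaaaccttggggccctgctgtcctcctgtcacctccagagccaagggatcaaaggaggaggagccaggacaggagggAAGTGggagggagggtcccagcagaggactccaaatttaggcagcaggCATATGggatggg
Myh7 promoter, chr14:54994550-54994799: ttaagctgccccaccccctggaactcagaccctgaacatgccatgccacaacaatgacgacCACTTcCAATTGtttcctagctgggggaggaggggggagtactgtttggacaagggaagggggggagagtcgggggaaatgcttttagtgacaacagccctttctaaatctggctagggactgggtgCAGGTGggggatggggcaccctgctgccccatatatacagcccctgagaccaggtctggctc
Myl3 promoter, chr9:110763428-110763677: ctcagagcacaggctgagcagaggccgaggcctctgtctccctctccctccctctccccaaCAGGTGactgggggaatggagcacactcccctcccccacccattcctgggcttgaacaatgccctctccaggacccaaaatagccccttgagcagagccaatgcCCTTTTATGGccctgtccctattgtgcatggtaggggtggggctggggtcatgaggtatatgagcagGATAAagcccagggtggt
The Myh6 stretch holds an NKX2-5 match and an E-box, the Myh7 stretch an NKX2-5 match and a pair of E-boxes, and the Myl3 stretch a CArG box, a GATA match and an E-box. Of 32851 RefSeq stretches of this length, 40.7% held the NKX2-5 motif, 66.2% an E-box, 22.6% the GATA motif, 3.20% the MEF2 motif and 1.47% a CArG box. A match is a run of letters and not a site shown to be bound.

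The other thick filament genes went both ways. Myl3, the ventricular essential light chain, had 92 UMIs in NTD and 45 in control members, a log2 ratio of 0.93 (0.41 to 1.48), and in core members 398 CPM and 225 CPM, a log2 ratio of 0.82. Myl7, the regulatory light chain of the atria and of the whole early heart tube, was at 346 CPM in NTD and 197 CPM in control members. It is a rule gene, and 22 of 33 NTD and 9 of 37 control members with 3 or 4 rule genes held it. Myl7 was also in 14.4% of NTD and 6.26% of control neuron barcodes, so it was more frequent outside heart muscle in the NTD library. Myl2, the ventricular regulatory light chain, was at 236 CPM and 184 CPM, a log2 ratio of 0.36 (-0.11 to 0.84), and Myl4, the embryonic atrial essential light chain, at 343 CPM and 345 CPM. Myom1, which cross-links the thick filaments at the M band, was lower in NTD core members, at 393 CPM against 708 CPM. Ttn, the giant elastic spring of the sarcomere, was at 1650 CPM in NTD and 2243 CPM in control core members, and spans 279 kb. Of the 9 measured thick filament genes in core members 0 were at least 2-fold higher and 1, Myh6, at least 2-fold lower, with a median log2 ratio of 0.02. Their summed log2 ratio was -0.47 with the rule genes Myh6, Myh7, Myl7 and Ttn and -0.16 (-0.37 to 0.05) without them, so the lower sum rested on genes that chose the barcodes. In other barcodes the same list was higher in NTD, with a summed log2 ratio of 0.38 (0.33 to 0.42). Of 11 genes measured there, 3 were at least 2-fold higher and 3 lower.

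The thin filament differed less in sum. Its genes summed to 4389 CPM in NTD and 4953 CPM in control core members, a log2 ratio of -0.17 (-0.31 to -0.04), and 1 of 10 measured genes was at least 2-fold lower and 0 higher. In other barcodes the same list had a summed log2 ratio of -0.45. Actc1, cardiac actin, spans 6.27 kb and was at 707 CPM in NTD and 472 CPM in control core members, a log2 ratio of 0.58 (0.18 to 0.99). Its near-identical relatives Acta1 and Acta2 make the counting of actin reads uncertain. Tpm2, a tropomyosin, was the gene at least 2-fold lower, at 115 CPM and 275 CPM. The troponins were between them: the tropomyosin-binding Tnnt2 was at 498 CPM in NTD and 635 CPM in control core members, the calcium-binding Tnnc1 at 503 CPM and 680 CPM, and the inhibitory Tnni1 at 299 CPM and 354 CPM.

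Z disc genes, which anchor the thin filaments and sense strain, were lower in NTD core members in sum, at 2577 CPM against 3958 CPM, a log2 ratio of -0.62 (-0.79 to -0.45). Of 8 measured, 2 were at least 2-fold lower and 0 higher. In other barcodes the same list was also lower in NTD, with a log2 ratio of -0.50 and 6 of 14 measured genes at least 2-fold lower. Ldb3 was at 236 CPM in NTD and 489 CPM in control core members, a log2 ratio of -1.05 (-1.61 to -0.52), and Ankrd1 at 272 CPM and 557 CPM, with a log2 ratio of -1.02 (-1.54 to -0.53). Fhl2, a LIM protein of the Z disc, came close at 225 CPM and 450 CPM. Smpx, a small protein of the costamere, was at 126 CPM and 124 CPM, and Csrp3, a muscle LIM protein, at 94.3 CPM and 107 CPM.

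Calcium handling was the most heavily counted group and was lower in NTD core members, at 14167 CPM against 22572 CPM, a log2 ratio of -0.67 (-0.74 to -0.60). Of 12 measured genes 2 were at least 2-fold lower and 0 higher, with a median log2 ratio of -0.68. Slc8a1 had 1519 UMIs in NTD core members (7956 CPM) and 2256 in control core members (12683 CPM), and its median per barcode was 27 UMIs and 41 UMIs. Atp2a2, the pump that refills the sarcoplasmic reticulum, was at 335 CPM in NTD and 776 CPM in control core members, with a log2 interval of -1.66 to -0.77, and spans 48.7 kb. Trdn, which ties the release channel to its calcium store, was at 131 CPM and 399 CPM, a log2 ratio of -1.59 (-2.33 to -0.93), and spans 396 kb. Cacna1c, the pore of the L-type calcium channel, was at 1267 CPM and 2159 CPM and its partner Cacnb2 at 1582 CPM and 2271 CPM. Ryr2, a rule gene, was at 1556 CPM and 2440 CPM. Pln, the brake on the Atp2a2 pump and a gene of the ventricle list, went the other way at 136 CPM and 89.9 CPM, with an interval of its log2 ratio that spans 0 (-0.35 to 1.59). Several of these genes are long, and Slc8a1 was also lower outside the set, at 148 CPM in other NTD and 248 CPM in other control barcodes. The whole list had a log2 ratio of -0.47 in other barcodes. The parts of gene length and of this wider difference in the lower sum were not tested. Over all members the sum had a log2 ratio of -0.53, and of -0.16 without the members that held 3 or more neuron genes.

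Transcription factors of the heart lineage summed to 2477 CPM in NTD and 3688 CPM in control core members, a log2 ratio of -0.57 (-0.75 to -0.40). Of 9 measured genes 3 were at least 2-fold lower and 1 higher in NTD. In other barcodes the list had a log2 ratio of -0.68, with 6 of 16 measured genes at least 2-fold lower. Gata4, a zinc finger factor that the heart needs to form, had 58 UMIs in NTD (304 CPM) and 118 in control core members (663 CPM), a log2 ratio of -1.12 (-1.61 to -0.66). Gata6, its close relative, had 10 and 25 UMIs, and Smyd1, a muscle methyltransferase, 26 and 51. The gene at least 2-fold higher was Prdm16, known for compact ventricular wall, with 27 and 12 UMIs and a log2 ratio of 1.04 (0.04 to 2.18). Tbx20, a T-box factor of all chambers, was at 309 CPM and 326 CPM. Tbx5, a factor of the atria and the left ventricle, had 7 UMIs in NTD and 18 in control core members. In other barcodes Gata4 was at 4.14 CPM in NTD and 30.4 CPM in control, and Tbx5 at 1.40 CPM and 14.9 CPM, so these genes were lower in NTD outside the set too. Mef2c, a factor of heart and skeletal muscle, had 82 UMIs in NTD and 257 in control over all members, 70 and 55 when only the members with 3 or more skeletal muscle genes were left out, and 45 and 51 in core members.

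**Figure D3:**
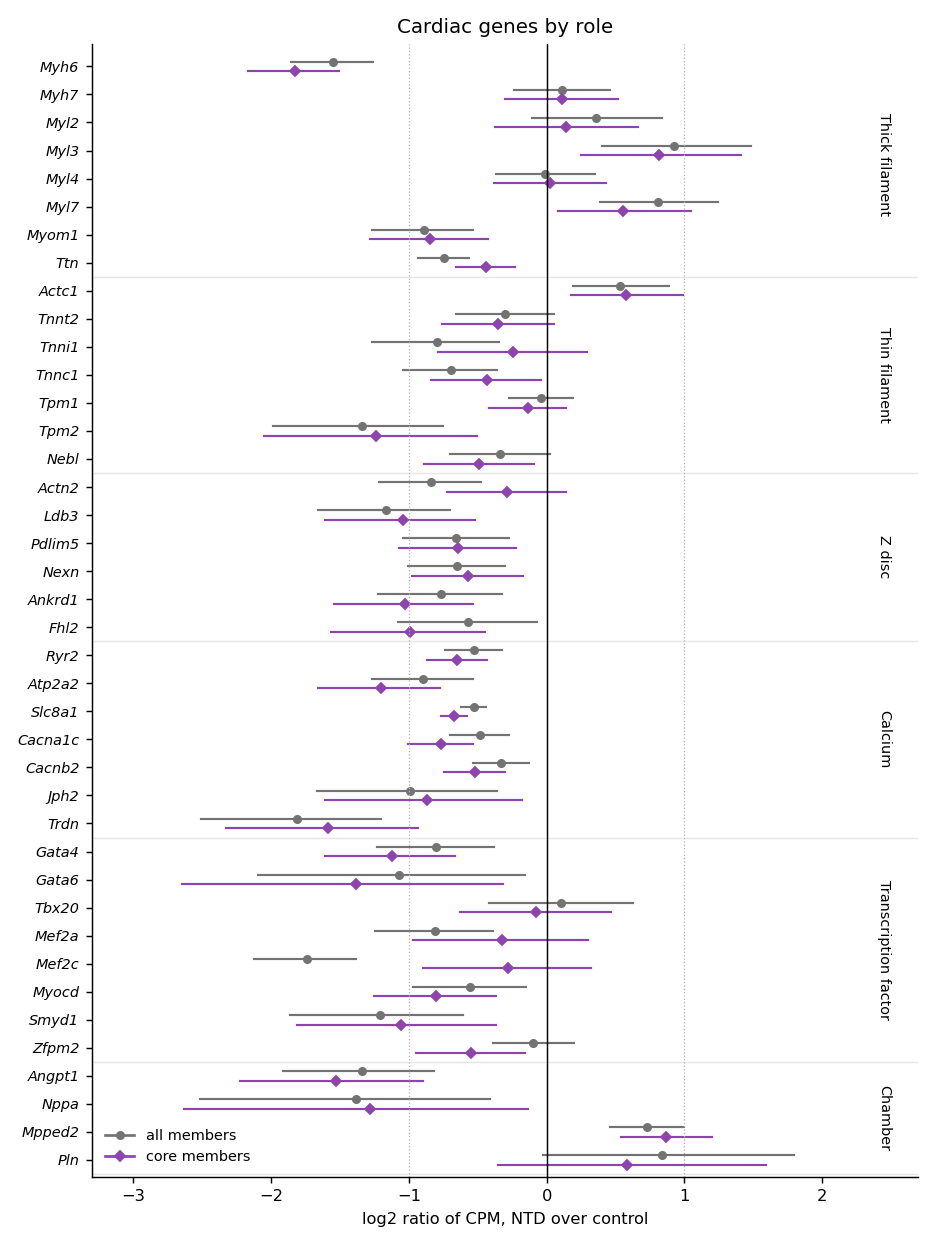
The log2 ratio of CPM in NTD over control is shown for heart genes grouped by role, for all members (grey circles) and core members (purple diamonds), with 95% intervals for counting error; dotted lines mark 2-fold. Myh6 stands lowest in the thick filament while Myl3, Myl7 and Actc1 lie to the right of 0, and Mef2c moves towards 0 in core members.

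The chambers were read from genes outside the rule. Ventricle genes summed to 2189 CPM in NTD and 1372 CPM in control core members, a log2 ratio of 0.67 (0.44 to 0.91), and atrium genes to 1126 CPM and 1630 CPM, a log2 ratio of -0.53 (-0.80 to -0.27). In other barcodes both lists had a summed log2 ratio of -0.20. The 7 ventricle genes measured there had a median log2 ratio of 0.34, with 2 at least 2-fold higher and 0 lower. The 9 atrium genes measured there had a median of -0.24, with 0 at least 2-fold higher and 2 lower. Of 5 measured atrium genes 1, Angpt1, was at least 2-fold lower in NTD core members and 0 higher, and Myl4, the most counted of them, was at 560 CPM and 551 CPM. Vsnl1, a calcium sensor gene on the atrium list, had 0 UMIs in the 44 NTD core members and 27 UMIs, in 10 barcodes, in the 49 control core members. It was in 0.56% of NTD and 0.66% of control neuron barcodes, so the control core members stood above that background. Angpt1, an angiopoietin that the atria make, was at 147 CPM in NTD and 427 CPM in control core members, a log2 ratio of -1.53 (-2.22 to -0.90), and was lower outside the set too, at 38.5 CPM and 101 CPM. Nppa, the natriuretic peptide of atria and trabeculae, had 9 and 21 UMIs. Mpped2, on the ventricle list, was at 1220 CPM in NTD and 669 CPM in control core members, a log2 ratio of 0.86. It spans 175 kb, a length at which the median gene was lower in NTD. The ventricle sums of 2189 CPM and 1372 CPM include these levels, and Mpped2 was also in 38.5% of NTD and 48.1% of control neuron barcodes.

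Barcodes were also classed by Myl2 or Myl3 against Sln, Nr2f2 or Kcnj3. Of all members, 30 of 79 in NTD and 20 of 89 in control held ventricle genes alone, a difference of 15.5 points (1.63 to 28.8). In core members it was 17 of 44 and 17 of 49, a difference of 3.94 points (-15.1 to 22.8). Without the skeletal-gene members it was 8.82 points (-6.52 to 23.4), so it was not detectable in either set at full depth. With barcodes thinned to equal depth, the class held 24 of 44 NTD and 16 of 49 control core members. The difference was then 21.9 points (1.77 to 39.8), and over all members so thinned it was 24.8 points (10.6 to 37.8). At full depth, atrium genes alone were in 8 of 79 (10.1%) and 30 of 89 (33.7%), a difference of -23.6 points (-35.0 to -11.2). Without the skeletal-gene members they were in 8 of 78 and 18 of 67, a difference of -16.6 points (-29.3 to -3.99). In core members they were in 0 of 44 NTD barcodes, with an upper Clopper-Pearson limit of 8.04%, and in 12 of 49 control barcodes (24.5%). The class rested mostly on Nr2f2, an atrial factor that was also in 46.7% of NTD and 49.4% of control neuron barcodes. Without Nr2f2 it held 0 of 79 NTD and 6 of 89 control members, and 0 of 44 and 4 of 49 core members, a difference of -8.16 points (-19.2 to 1.27) in the core. The ventricular class without Nr2f2 held 28 of 44 NTD and 18 of 49 control core members, a difference of 26.9 points (6.55 to 44.3). Myl2 was in 12.3% of NTD and 4.05% of control neuron barcodes (medians of 2791 and 2936 UMIs), and Myl3 in 9.95% and 5.35%, so both were more frequent outside heart muscle in the NTD library. Myl2 was in 68.2% of NTD and 46.9% of control core members (medians of 3851.5 and 3127 UMIs).

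Core members were therefore split, after their values were seen, by whether they held Myl2 or Myl3. Of 44 NTD core members, 39 held one and 5 held neither, and of 49 control core members, 29 and 20. The 20 control barcodes without them held 2667 CPM of Myh6 and 82.1 CPM of Myh7, 287 CPM of Vsnl1, 233 CPM of Mpped2 and 0 UMIs of Hey2, a transcription factor of the ventricle. The 29 control barcodes with them held 1365 CPM of Myh6, 850 CPM of Myh7, 57.3 CPM of Vsnl1 and 974 CPM of Mpped2. The 5 NTD barcodes without Myl2 and Myl3 were unlike the 20 control ones in 3 genes: they held 13 UMIs of Myh7, 5 of Myh6 and 16 of Mpped2. They held 0 UMIs of Vsnl1 and Nr2f2, but only 13375 UMIs in all, so the upper limit for each was 276 CPM. That limit lay within the control intervals of Vsnl1 (178 to 439 CPM) and Nr2f2 (232 to 521 CPM), so these zeros show no difference. Among barcodes with Myl2 or Myl3, Myh6 was at 546 CPM in NTD (443 to 666) and 1365 CPM in control (1150 to 1608), and Myh7 at 546 CPM and 850 CPM. The lower Myh6 of the NTD library was thus seen within the barcodes that held Myl2 or Myl3 too. These barcodes were mixed: 31 of 39 NTD and 22 of 29 control ones held Myh7, and 3 of the control ones held Vsnl1. Among the control ones with 0 UMIs of Myh7 and 1 UMI of Myl2 or Myl3 were barcodes with 15, 13, 13 and 11 UMIs of Myh6. The part of such barcodes in the Myh6 difference was not tested. The part of free Myl2 and Myl3 RNA in the sizes of these groups was not tested.

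**Figure D4:**
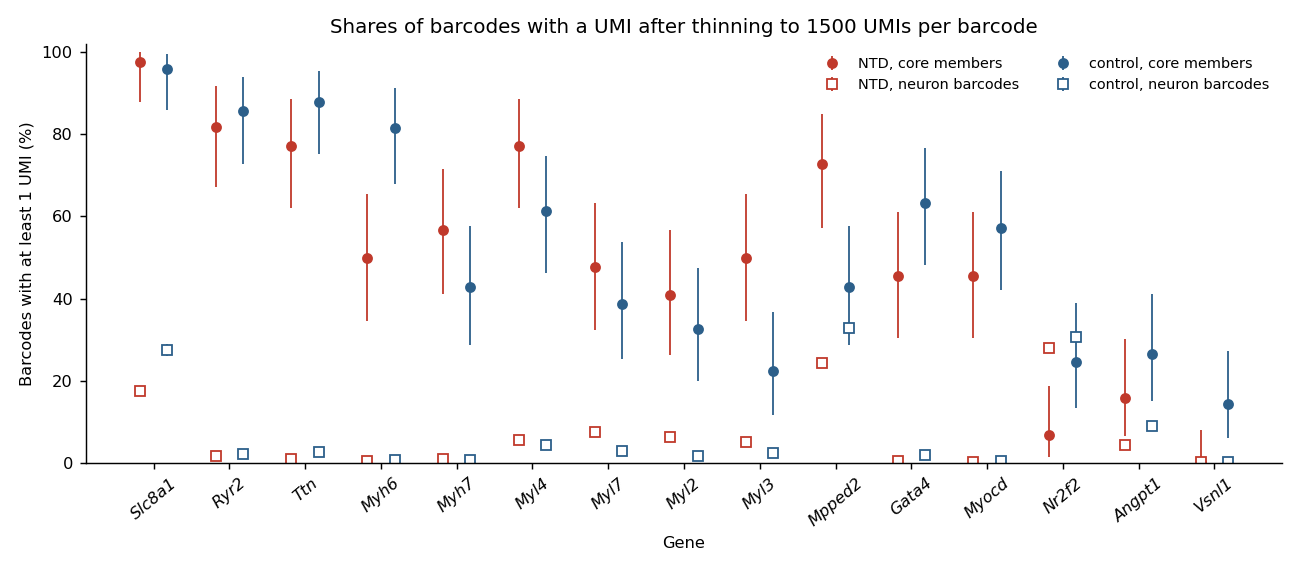
Points give the share of barcodes with at least 1 UMI of each gene after each barcode was thinned to 1500 UMIs, in core members (filled circles) and neuron barcodes (open squares), NTD in red left of control in blue, with 95% Clopper-Pearson intervals. Myh6 was in 22 of 44 NTD and 40 of 49 control core members and Myl3 in 22 of 44 and 11 of 49, with neuron barcodes at or under 6.31% for Myh6, Myh7, Myl2, Myl3 and Vsnl1; Nr2f2 in core members lay below its neuron shares.

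Energy genes of the nuclear genome were higher in NTD both in core members and in the rest of the library. The genes of mitochondrial energy metabolism summed to 3394 CPM in NTD and 2457 CPM in control, which is 0.47 on the log2 scale (0.29 to 0.64), with 0 of 9 measured at least 2-fold higher or lower. The glycolysis genes summed to 4599 CPM and 3463 CPM, a log2 ratio of 0.41 (0.26 to 0.56). In other barcodes the log2 ratio of the energy list was 0.50 and that of the glycolysis list 0.49. Ldha, which makes lactate, was at 409 CPM in NTD and 208 CPM in control core members, and Gapdh at 1540 CPM and 888 CPM. Cell cycle genes summed to 3923 CPM in NTD and 2704 CPM in control core members, a log2 ratio of 0.54 (0.37 to 0.70), and of 0.32 in other barcodes. Of 16 measured in core members 2 were at least 2-fold higher and 0 lower, and their median log2 ratio was 0.57. Much of the difference in the sum was Hmgb2, a chromatin protein of dividing cells, at 985 CPM and 365 CPM. The proliferation antigen Mki67 had 25 and 20 UMIs and the topoisomerase Top2a 74 and 54. Outside the set Hmgb2 was at 1142 CPM in NTD and 674 CPM in control. The ribosomal protein share was 11.3% in NTD and 6.56% in control core members, and the part of library composition in these sums was not tested.

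Genes of the pathways that the treatment and the study title name were also summed. Folate and one-carbon genes summed to 948 CPM in NTD and 1029 CPM in control core members, a log2 ratio of -0.12 (-0.42 to 0.19). Tyms, which makes thymidylate, had 28 UMIs in NTD and 18 in control core members. The p53 target genes summed to 550 CPM and 551 CPM. Genes of N6-methyladenine and H3K9 methylation summed to 1781 CPM in NTD and 1546 CPM in control core members, a log2 ratio of 0.20 (-0.03 to 0.44). Alkbh1, the demethylase of the study title, had 57 UMIs in NTD and 56 in control members, a log2 ratio of -0.07 (-0.63 to 0.49), and 31 and 20 UMIs in core members. Of 7 measured genes of that list in core members 0 passed 2-fold in either direction.

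Among the genes with the most extreme ratios, several also differed between the libraries outside the set. Xist, the RNA of the inactive X chromosome, had 231 UMIs in NTD core members, in 40 of 44 barcodes, and 2 UMIs in control core members, in 2 of 49. Uty and Eif2s3y, which lie on the Y chromosome, had 5 and 5 UMIs in NTD core members and 33 and 27 in control. In other barcodes Xist was at 908 CPM in NTD and 91.2 CPM in control, and Uty at 68.7 CPM and 197 CPM. Sex of the embryos and group cannot be told apart. Afp, a gene of liver and yolk sac, was in 0 of 79 NTD and 40 of 89 control members (44.9%), and in 39.9% of control neuron barcodes, so its share was near that background. In all members the lowest ratios included Mylpf, Neb, Myh3 and Myl1, which the skeletal barcodes carried.

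The lowest and highest ratios in core members included genes of other kinds. Kcnq3, a potassium channel subunit, had 4 UMIs in NTD and 47 in control core members, a log2 ratio of -3.50 (-5.59 to -2.21), with 4 and 14 barcodes holding it. Ryr3, a calcium release channel related to Ryr2, had 11 and 64 UMIs, a log2 ratio of -2.59 (-3.72 to -1.71). Itga6, an integrin chain that binds laminin, had 7 and 41 UMIs, in 6 and 19 barcodes. Cnn1, calponin, a smooth muscle gene that early heart muscle shares, had 6 and 26 UMIs. On the other side were 4 genes that ranked among the 15 highest in all members too. Adh5, an aldehyde-clearing dehydrogenase, had 29 UMIs in NTD core members and 4 in control core members, a log2 ratio of 2.61 (1.25 to 4.72), and Timm8b, of mitochondrial import, 29 and 5. Ndufc1 and Ndufa2, subunits of respiratory complex I, had 47 and 45 UMIs in NTD core members and 11 and 11 in control. In other barcodes Kcnq3 was at 77.8 CPM in NTD and 54.6 CPM in control, and Ryr3 at 18.5 CPM and 21.7 CPM, so their lower counts were not matched outside the set. Adh5 outside the set was at 135 CPM and 93.6 CPM. The ratio of Dkk2 over all members, 44 UMIs in NTD and 6 in control, did not extend to core members, where it had 2 and 5.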

How the data were processed

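The deposited values were UMI counts per gene and cell barcode (10x Genomics 3' v3 kit, per the labels), and per the file headers the authors used Cell Ranger 7.0.1 for them. The submitters' processing notes name STAR and the mm10 build. Nothing used here states the annotation, the intron setting or how cells were called. The members and gene lists were chosen with earlier results of these data known, and no barcode filter was applied.

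Counts were summed over the barcodes of a set in each library and divided by the set's total (CPM). Log2 ratios are NTD over control with 0.5 counts added, on genes of at least 30 UMIs over both libraries. Intervals (95%) are exact Poisson, Clopper-Pearson and conditional binomial, and Newcombe for differences of shares. UMIs limit but do not remove amplification copies, so intervals cover counting error only. Neuron barcodes held at least 3 of Tubb3, Stmn2, Elavl3, Elavl4, Map2 and Nefl. They numbered 7735 in NTD and 4417 in control, and their shares are given for those outside the set. For shares at equal depth, barcodes were thinned to 1500 UMIs, and shallower ones left out (0 NTD and 0 control core members). The named genes were rule genes, members of 30 lists, the 20 most counted in each library's members and the 15 highest over other barcodes in both. They also included the 15 highest and 15 lowest ratios, in members and, added later, in core members. Scrublet in scanpy 1.11.5 called 0 doublets in either library at its automatic threshold, so it did not work here, and a score above 0.2, held by 2 NTD and 3 control members, was tried in its place. Coordinates are from GENCODE M21 (GRCm38), matched for 32158 of 32285 gene IDs, and promoter sequences from RefSeq (GRCm38.p6). The counting steps were tested on simulated data. Alternatives numbered 10 planned and 7 added after the data were seen, besides list sums of core members without rule genes; TMM factors came from edgeR.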

Additional observations from a re-analysis of the deposited data

How the results depend on the processing

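No paired analysis was possible because each group had 1 library, and no replicate could be left out. The member share differed by -0.207 points at a matched UMI floor. The ventricular class differed by 3.94 points in core members, 6.44 at 5 or more rule genes and 8.82 without members that held 3 skeletal genes, each with an interval that spans 0, and by 29.0 points without Nr2f2. With barcodes thinned to equal depth before classing, it differed by 24.8 points over all members and 21.9 in core members, with intervals above 0. The atrial class differed by -6.74 points without Nr2f2. Genes at least 2-fold higher and lower in NTD numbered 148 and 230 with the rule applied after thinning, 138 and 150 in core members, 672 and 1120 at a minimum of 10 UMIs and 92 and 79 at 100 UMIs. Those lower numbered 195 at 5 or more rule genes and 252 without members that held 3 skeletal genes.

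Summed log2 ratios kept their direction in the sarcomere, calcium and chamber lists. With 4 or more rule genes the thick filament was at -0.63 and calcium handling at -0.65, after thinning at -0.25 and -0.44, and under TMM scaling at -0.38 and -0.41. Without members that held 3 neuron genes the thick filament was at -0.22, the thin filament at -0.015, the Z disc at -0.47, calcium handling at -0.16 and the ventricle genes at 0.96. With 5 or more rule genes they were at -0.73, -0.43, -0.89 and -0.87, and the atrium genes at -0.66. Without members that held 3 skeletal genes they were at -0.77, -0.44, -0.91 and -1.02, the atrium genes at -0.68 and the ventricle genes at 0.28. Without members above 15000 UMIs the thick filament was at -0.37, the thin filament at -0.10 and calcium handling at -0.40. In core members calcium handling was at -0.67.

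The direction turned for 6 named genes. Auts2 was at 0.039 with 4 or more rule genes, 0.11 after thinning, 0.19 with 5 or more and 0.11 in core members, and Thsd7a at 2.02, 2.79, 1.75 and 1.92. Hbb-bh1 was at -0.14 after thinning and -0.17 in core members. Cacnb2 was at 0.017 and mt-Co3 at -0.0019 without members that held 3 neuron genes, and Kirrel3 at -0.19 without members above 15000 UMIs. The cause was not tested. With 1 library a group, depth limits genes of few UMIs, and no setting replaces a replicate.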
